A study of Caenorhabditis elegans with 2 samples.

Results

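The genes described here are 10 genes of the endoplasmic reticulum (ER) unfolded protein response of the nematode Caenorhabditis elegans, out of 46135 genes in the deposited table. They were taken by name: the stress sensors ire-1, pek-1 and atf-6, the transcription factor gene xbp-1, the ER chaperone genes hsp-3, hsp-4 and crt-1, and the protein disulfide isomerase genes pdi-1, pdi-2 and pdi-6. Of these, 9 were matched by the symbol in the table, and pdi-6 by its sequence name B0403.4, since the table lists it under the older symbol tag-320. An FPKM (fragments per kilobase of transcript and per library size) above 0 in every column was given for 8 of the 10. The ire-1 row held a 0 in 1 of its 4 values and the pdi-2 row held 4 zeros.

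The study compared whole L3 larvae of 2 genotypes, with 1 library each: animals carrying the lsm-1(tm3585) allele, backcrossed 3 times to N2, and N2 wild-type animals. Both had been grown at 25 °C for 26 hours from synchronised L1 larvae and carried no further allele or treatment per the labels. The name of the N2 library also holds the term back3, whose meaning for N2 is not given there. The LSM-1 protein belongs to the Lsm ring of the cytoplasm, which activates the decapping of messenger RNAs before their decay. With 1 library per genotype no difference has a replicate check, and nothing below separates genotype from library.

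When unfolded proteins build up in the ER, IRE-1 cuts the xbp-1 messenger RNA so that it is spliced into a form encoding an active transcription factor. PEK-1, the worm PERK kinase, slows translation by phosphorylating initiation factor eIF2alpha, and ATF-6 is a membrane-bound factor whose mammalian counterpart is freed by proteolysis. Their targets include the ER Hsp70 proteins, calreticulin and the disulfide isomerases, which fold secreted and membrane proteins such as the cuticle collagens and yolk proteins of the worm.

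The spacing of low FPKM values gave a depth of about 8.60 M fragments in the mutant library and 7.04 M in N2. As a check of the labels, lsm-1 (chromosome II) was at 5.94 FPKM in the mutant library and 10.2 in N2, a ratio of 0.581 with a 95% counting interval of 0.341 to 0.977, and it did not pass the authors' deposited test (q = 0.457). This weak check cannot see a partial deletion. A difference below is log2(FPKM + 1) in the mutant library minus that in N2, and a gene is called measured where either library reached 1 FPKM. Over 14838 measured genes the median difference was 0.24, a factor of 1.18, and a centred difference is taken relative to it. This factor includes the pseudocount of 1, whereas the ratios given below are of plain FPKM, so setting a ratio against it is approximate. With a pseudocount of 0.1 the median difference was 0.28. Ribosomal RNA genes held 37.3% of the length-weighted FPKM in the mutant library and 46.2% in N2. The log2 ratio of the remaining shares, mutant library over N2, was 0.22. The part of ribosomal RNA in the median difference was not tested.

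The 5 chaperone and isomerase genes with values stood higher in the mutant library by similar factors, from 1.54 for pdi-1 to 1.75 for hsp-4. Among the sensors and transcription factors, pek-1 stood higher by 1.73, while xbp-1 and atf-6 both had a ratio of 1.18. Their centred differences of 0.00 and -0.05 lay close to the shift of all genes. No member other than ire-1 passed the authors' test, and the call on ire-1 rests on a value of 0 that the further FPKM pair does not repeat. Counting intervals here are exact 95% intervals on approximate fragment numbers and cover counting error only, not the spread between animals or libraries.

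**Figure D1:**
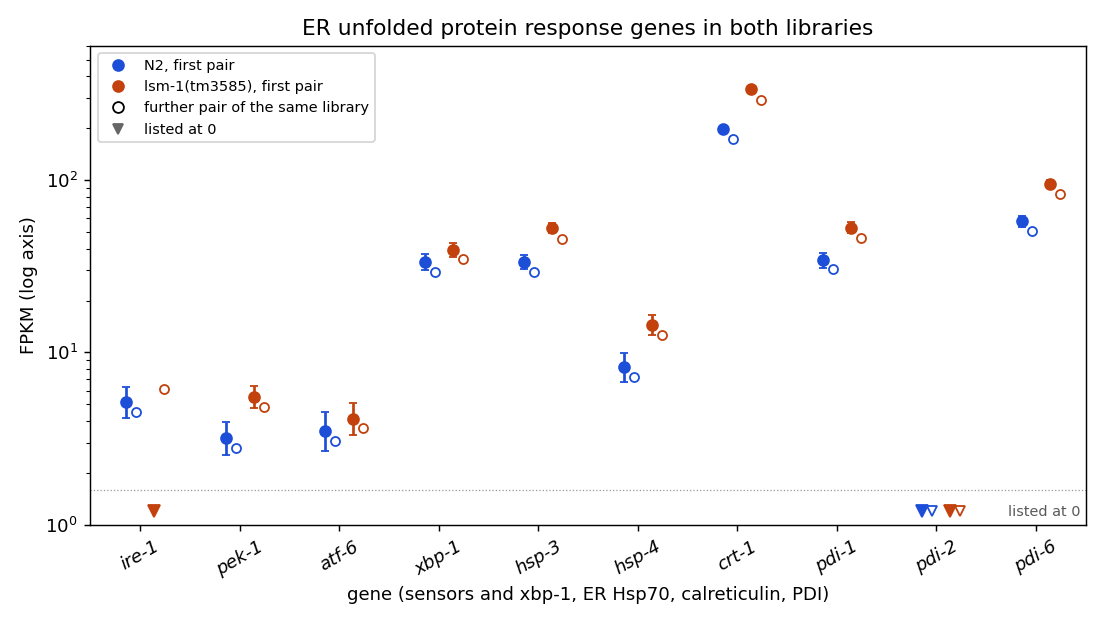
FPKM (log axis) of the 10 genes in the N2 library (blue) and the lsm-1(tm3585) library (orange). Filled points are the pair of columns beside the authors' test, with 95% counting intervals; open points are the further pair of the same libraries, and triangles below the dotted line mark values listed at 0. All 8 genes above 0 in every column stood higher in the mutant library (xbp-1 and atf-6 turn to -0.06 and -0.05 with the protein-coding sum made equal), and ire-1 was listed at 0 in 1 value only.

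The sensor gene ire-1 (C41C4.4, chromosome II) encodes the kinase and nuclease that processes xbp-1 messenger RNA. In the pair of FPKM columns beside the authors' test it was listed at 0 in the mutant library and at 5.18 FPKM in N2, on about 96 fragments. The further pair gave 6.13 FPKM in the mutant library and 4.54 in N2. The 2 pairs thus give opposite orders for the same libraries. In the authors' deposited table the gene passed the test as lower in the mutant (q = 0.000148). It was the only member of the 9 with a usable test to pass, against a background of 1.41% of genes called lower and 2.35% called higher. No fold is given here because a value of exactly 0 in this table can be a failed estimate.

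In the WBcel235 annotation ire-1 overlaps unc-105, a degenerin-type ion channel gene on the opposite strand. The unc-105 row was listed at 0 in the mutant library and 2.64 FPKM in N2, and at 0 in each library in the further pair. Its zero in the mutant library stood in the same column as that of ire-1. Whether the overlap bears on either value was not tested. In the table as a whole, 57 genes, ire-1 among them, were at 0 only in the mutant value of the pair beside the test. Of the 57, 7 passed the authors' test, ire-1 included.

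PEK-1 is the worm PERK, and its gene pek-1 (F46C3.1, chromosome X) was at 5.53 FPKM in the mutant library and 3.19 in N2. These values rested on about 176 and 83 fragments, and the ratio of 1.73 had a counting interval of 1.33 to 2.27. The further pair of the same libraries gave 4.84 and 2.80 FPKM, also a ratio of 1.73, which is no separate check. The interval lay above the factor of 1.18 by which measured genes stood higher at the median. In the authors' deposited table pek-1 did not pass the test (q = 0.411).

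The gene atf-6 (F45E6.2, chromosome X) was at 4.13 FPKM in the mutant library and 3.51 in N2. Its ratio of 1.18 rested on about 85 and 59 fragments, and its interval of 0.833 to 1.67 held both 1 and the general shift. A difference in atf-6 was therefore not detectable at this depth (q = 0.851 in the authors' deposited table).

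The transcription factor gene xbp-1 (R74.3, chromosome III), whose spliced messenger RNA drives the IRE-1 branch, was at 39.5 FPKM in the mutant library and 33.5 in N2. Its further values were 34.6 and 29.4 FPKM. The ratio of 1.18 had an interval of 1.02 to 1.36, and the centred difference was 0.00. The xbp-1 level thus moved by as much as the median measured gene. An FPKM over the whole gene does not separate spliced from unspliced xbp-1 messenger RNA, so the activity of IRE-1 was not measured here. The authors' deposited table gave q = 0.803.

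Both ER Hsp70 genes, the worm counterparts of BiP, stood higher in the mutant library. The gene hsp-3 (C15H9.6, chromosome X) was at 52.9 FPKM in the mutant library and 33.4 in N2, a ratio of 1.58 with an interval of 1.41 to 1.77. Its further values were 45.8 and 29.4 FPKM. The gene hsp-4 (F43E2.8, chromosome II), widely used as the reporter of the IRE-1 and XBP-1 branch, was at 14.4 FPKM and 8.21, a ratio of 1.75 with an interval of 1.38 to 2.23. In the further pair it was at 12.6 and 7.21 FPKM. The interval of hsp-3 lay wholly within that of hsp-4, so a difference between the 2 ratios was not detectable at this depth. Neither gene passed in the authors' deposited table (q = 0.404 for hsp-3 and 0.271 for hsp-4).

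Per length, hsp-3 was the more abundant of this pair in each library. Its FPKM was 3.68 times that of hsp-4 in the mutant library and 4.07 times in N2. Relative to xbp-1, the level of hsp-4 was 0.364 in the mutant library and 0.245 in N2, and that of hsp-3 was 1.34 and 0.999. Both chaperone genes thus stood higher against xbp-1 in the mutant library. The further pair gave the same order, but it comes from the same libraries at a nearly constant scale and is no separate check. The 2 genes are paralogs, and the sharing of reads between them was not examined.

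Calreticulin, a calcium-binding chaperone of glycoproteins in the ER lumen, is encoded by crt-1 (Y38A10A.5, chromosome V), the most abundant member. It was at 339 FPKM in the mutant library and 198 in N2, and at 292 and 174 in the further pair. With about 4087 and 1948 fragments, its ratio of 1.72 had the narrowest interval of any member, 1.63 to 1.81. Its difference of 0.78 was the highest among the 8 genes above 0 in every column. The authors' deposited table did not call it (q = 0.426). The crt-1 gene overlaps smut-1 on the opposite strand, at 7.16 FPKM against 3.94, far below crt-1 in each library.

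The protein disulfide isomerases form and exchange disulfide bonds in secreted proteins. The gene pdi-1 (C14B1.1, chromosome III) was at 52.8 FPKM in the mutant library and 34.3 in N2, and at 46.4 and 30.3 in the further pair. Its ratio of 1.54 had an interval of 1.36 to 1.75. The gene pdi-6 (B0403.4, chromosome X) was at 95.1 FPKM and 57.5, and at 83.3 and 50.5 in the further pair, a ratio of 1.65 with an interval of 1.5 to 1.82. Both intervals lay above the factor of 1.18, and neither gene passed in the authors' deposited table (q = 0.404 and 0.457). The third isomerase gene, pdi-2 (C07A12.4, chromosome X), encodes the subunit shared by the collagen prolyl 4-hydroxylases. It was listed at 0 in both libraries of both pairs and marked as not tested, so its level cannot be read from this table. Values of 0 in all 4 columns, whatever the status, were listed for 1185 of 19406 protein-coding genes, pdi-2 included.

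**Figure D2:**
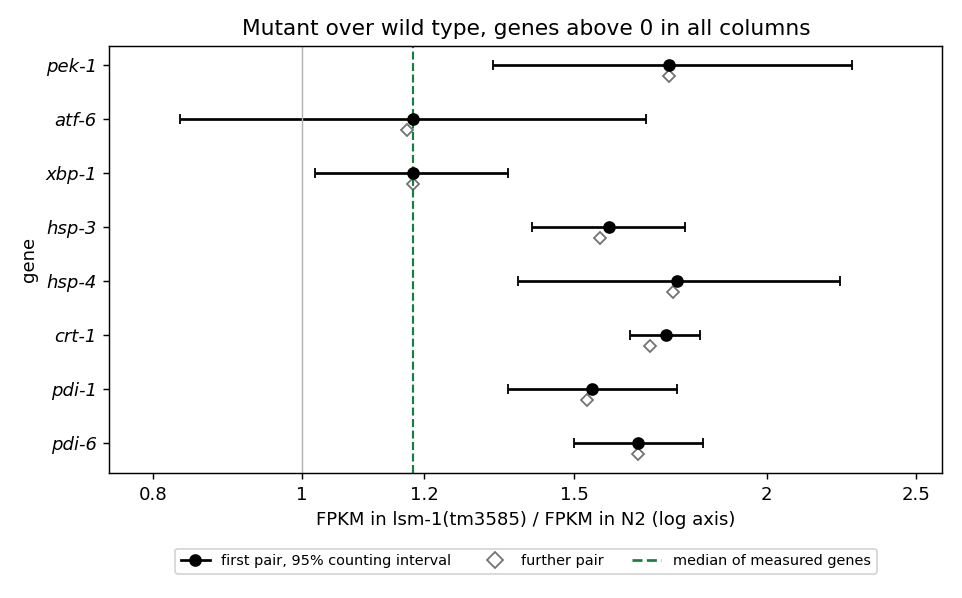
FPKM in the lsm-1(tm3585) library over FPKM in the N2 library (log axis) for the 8 genes above 0 in all 4 columns. Points with bars are the pair beside the authors' test with exact 95% counting intervals, diamonds are the further pair, and the dashed line marks the factor of 1.18 of the median measured gene. The intervals of pek-1, hsp-3, hsp-4, crt-1, pdi-1 and pdi-6 lay above the dashed line, and those of atf-6 and xbp-1 held it.

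FPKM is scaled by length, so levels can be ordered across genes. In the wild-type library the order was crt-1, pdi-6, pdi-1, xbp-1, hsp-3, hsp-4, ire-1, atf-6 and pek-1. The neighbours pdi-1 (30.9 to 37.9 FPKM), xbp-1 (29.9 to 37.3) and hsp-3 (30.5 to 36.6) had overlapping counting intervals there. So did ire-1 (4.19 to 6.32) with atf-6 (2.67 to 4.53), and atf-6 with pek-1 (2.54 to 3.96). In the mutant library hsp-3 and pdi-1 again overlapped, at 49.5 to 56.5 and 49.0 to 56.8 FPKM, but xbp-1 lay below both at 36.0 to 43.2. The sensors pek-1 (4.74 to 6.41 FPKM) and atf-6 (3.30 to 5.11) were the least abundant members above 0 in the mutant library, and their intervals overlapped. Among genes above 0, 1.47% had a higher FPKM than crt-1 in the mutant library and 1.67% in N2.

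Set against all genes, the members' differences were of moderate size. The size rule counts differences of at least 1, which is 2-fold on the log2(FPKM + 1) scale. No member reached it on the higher side, where 13.6% of measured genes did, and ire-1 alone did on the lower side, against 12.2%. The median difference of the 9 measured members was 0.64, beside 0.24 for all measured genes, or 0.40 after centring. All 8 members above 0 in every column were higher in the mutant library, as were 67.5% of such genes, except that xbp-1 turned to -0.06 and atf-6 to -0.05 with both libraries scaled to the same protein-coding sum. Of the 8, 6 lay above the median of measured genes, against 50.3%. The counting interval of the ratio lay above the factor of 1.18 for 6 of 8 members and below it for none, against 18.9% and 14.7% of genes. Restricted to genes with at least 100 fragments in each library, 5 of 6 members lay above and none below, against 31.7% and 20.1%.

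Genes of a like level, with a mean FPKM within a factor of 2 of the member, give a closer frame. Of 184 genes at the level of crt-1, 7.07% had a larger difference than its 0.78, and the median was 0.23. For hsp-4, 16.6% of 3744 such genes exceeded its 0.74, and for pdi-6, 16.3% of 603 exceeded its 0.71. The shares were 20.5% for pek-1, 20.6% for hsp-3 and 22.1% for pdi-1. For xbp-1 and atf-6 they were 57.6% and 55.8%, so both lay slightly below the middle of their peers.

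**Figure D3:**
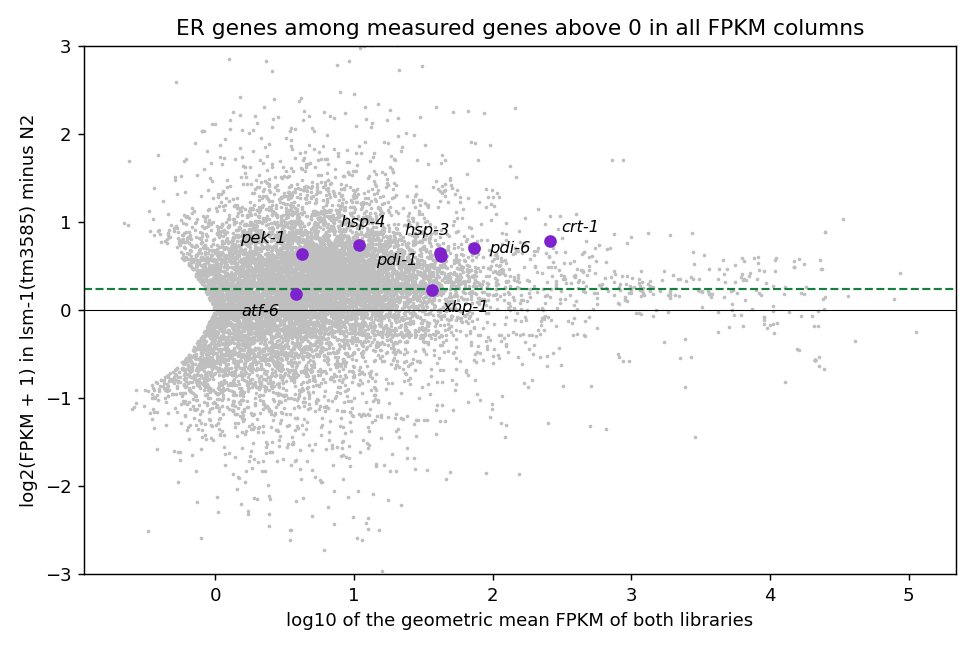
Difference in log2(FPKM + 1), lsm-1(tm3585) minus N2, against log10 of the geometric mean FPKM for 11804 measured genes above 0 in all 4 columns (grey), with 8 members in purple. The dashed line is the median difference of 0.24; 25 genes lie beyond the plotted limit of 3 in size. The members crt-1, pdi-6, hsp-3, pdi-1, hsp-4 and pek-1 lie between 0.61 and 0.78, within the upper part of the cloud, and xbp-1 and atf-6 lie by the dashed line.

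By position, 5 of the 10 members are on chromosome X (pek-1, atf-6, hsp-3, pdi-2 and pdi-6). The median difference of measured genes above 0 in every column was 0.32 on chromosome X and between 0.19 and 0.24 on the autosomes. The members on chromosome X with values spanned 0.18 for atf-6 to 0.71 for pdi-6, and those elsewhere 0.23 for xbp-1 to 0.78 for crt-1. The part of the chromosome in these differences was not tested.

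A further 72 genes of 8 lists cover the rest of the ER folding and export machinery. Of the 66 measured, 7 passed the size rule as higher and none as lower, against 13.6% and 12.2% of measured genes, but 5 of the 7 were listed at 0 in the wild-type library. Above 0 in every column were 60, of which 52 were higher in the mutant library, against 67.5% of such genes, and 32 lay above the median of measured genes, against 50.3%. Their median difference was 0.26, close to the 0.24 of all measured genes. Among these 60, 2 passed the size rule as higher and 0 as lower, against 6.57% and 3.86% of genes. Of the 56 with a usable test, the authors' deposited table called 4 higher and none lower, against 2.35% and 1.41% of all genes tested. Of these 4, trap-1 and png-1 were listed at 0 in N2, where a 0 can be a failed estimate. The gene enpl-1 was listed at 0 in N2 of the further pair, and Y41C4A.11 rested on about 2 fragments in N2.

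The genes that serve as readouts of the IRE-1 and XBP-1 branch in other work include hsp-4 itself. Of the 8 ER lists, theirs had the median nearest to the 0.71 of the chaperone and isomerase members. Outside the ER lists, 4 cytosolic and mitochondrial Hsp70 and Hsp90 genes above 0 in every column also had a median of 0.71. All 6 readout genes were higher in the mutant library, against 67.5% of measured genes above 0 in every column. Their median difference was 0.77. The genes T14G8.3, dnj-7 and dnj-27 are also in the list of other folding factors. Of these, Y41C4A.11 was at 6.19 FPKM against 0.644 and passed in the authors' deposited table (q = 0.000148), on about 23 and 2 fragments and with a ratio interval of 2.38 to 84.2. The choline kinase gene ckb-2 was at 8.67 FPKM against 3.18 (q = 0.0754 in the authors' deposited table). The gene dnj-7, the counterpart of the mammalian co-chaperone P58IPK, was at 18 FPKM against 10.9, a ratio of 1.65. At the low end dnj-27, related to the disulfide reductase ERdj5, was at 9.42 FPKM against 8.17, and its interval of 0.885 to 1.51 held the general shift.

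Other folding factors of the ER spread from below the general shift to above the highest member. The GRP94 gene enpl-1 was at 84.7 FPKM against 43.6, a ratio of 1.95 with an interval of 1.78 to 2.12, and passed in the authors' deposited table (q = 0.012). Its wild-type value was listed at 0 in the further pair (74.8 FPKM in the mutant library). The HYOU1-like gene T14G8.3 (24.5 FPKM against 13.6) and dnj-20, an ERdj3-like co-chaperone gene (87.3 against 49.5), both had a difference of 0.81. The related T24H7.2 stood at 18.5 against 17.7, a difference of 0.06. Calnexin, the membrane-bound relative of calreticulin, had 25.1 FPKM against 19.1 (cnx-1). The oxidase gene ero-1, which recharges the disulfide isomerases, was at 13 against 10.9 and lay at the general shift, with a centred difference of 0.00. Of the 15 measured genes none passed the size rule, against 13.6% of measured genes as higher and 12.2% as lower. The median difference of the 15 was 0.38. The isomerase gene pdi-3, at 150 FPKM against 103, had a difference of 0.53.

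The genes for entry into the ER and for glycosylation included several listed at 0 in N2. Among 12 translocon and signal peptidase genes above 0 in every column the differences ran from 0.19 to 0.88 with a median of 0.35, beside 0.37 for the folding factors on the same basis. At the ends were the Sec61 beta subunit gene sec-61.B (28.1 FPKM against 14.8) and trap-3 (28.8 against 17.7), and sec-62 (23.5 against 20.5) and the SEC63-like dnj-29 (35.7 against 30.6). The translocon-associated gene trap-1 was listed at 0 in N2 and at 22.3 FPKM in the mutant library, in the further pair likewise (19.3), and passed in the authors' deposited table (q = 1.44e-06). The gene tram-1, at 13.1 FPKM in the mutant library, was listed at 0 in its other 3 values, and trap-2 at 0 throughout. Of the oligosaccharyltransferase genes, 4 had values in every column, with a median difference of 0.42: ostd-1 (46.6 FPKM against 31.6), the catalytic subunit gene stt-3 (31.6 against 22.7), dad-1 (67.6 against 51.7) and ribo-1 (6.17 against 5.07). The other two, ostb-1 (43.6 FPKM in the mutant library) and ZK686.3 (14.1), were listed at 0 in N2 in both pairs, with their tests marked as failed.

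Degradation and export genes lay around the general shift. Of 14 ER-associated degradation genes above 0 in every column, 7 lay above the median of measured genes, against 50.3% of all such genes. The median of the 14 was 0.27. The p97 gene cdc-48.2 (23.4 FPKM against 13.8) and ubxn-4 (12.9 against 7.47) were highest, and the ubiquitin ligase gene hrdl-1 (13 against 15.1) and npl-4.1 (13.8 against 14.1) lowest. The N-glycanase gene png-1 was listed at 0 in N2 of both pairs (5.48 FPKM in the mutant library) and passed in the authors' deposited table (q = 2.71e-06), and sel-11, the Hrd1 ligase gene, was listed at 0 throughout. The COPII coat genes, which package cargo leaving the ER, had a median of 0.08, or -0.15 after centring. They ran from sec-12 (13.7 FPKM against 9.44) and sec-23 (9.90 against 6.78) to sec-24.2 (1.37 against 1.49) and sec-16A.1 (0.998 against 1.49), with sec-31 at 0 throughout.

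Partners of the sensors and of pdi-2 lay near or below the general shift, apart from dnj-7, which is also in the sensor list (difference 0.67). In the translation branch below PEK-1, the eIF2alpha gene Y37E3.10 was at 39.0 FPKM against 33.3. The transcription factor gene atf-4, listed under its older symbol atf-5, was at 4.77 against 4.88. The gene gcn-2, for a separate kinase related to PEK-1, was at 5.67 against 5.16. The RNA ligase gene rtcb-1, which joins the cut ends of xbp-1 messenger RNA, was at 1.21 against 0.937 FPKM on about 17 and 11 fragments. The prolyl hydroxylase genes that work with PDI-2, dpy-18 (33.6 FPKM against 32.2) and phy-2 (29.6 against 32.1), and the lysyl hydroxylase gene let-268 (8.86 against 8.05) had differences of 0.06, -0.11 and 0.12. The gene phy-4 was listed at 0 in the mutant library and at 0.869 FPKM in N2, below the limit for measured genes, and stood at 0.569 against 0.754 in the further pair. Thus none of these 3 hydroxylase genes lay as high as the chaperone members.

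**Figure D4:**
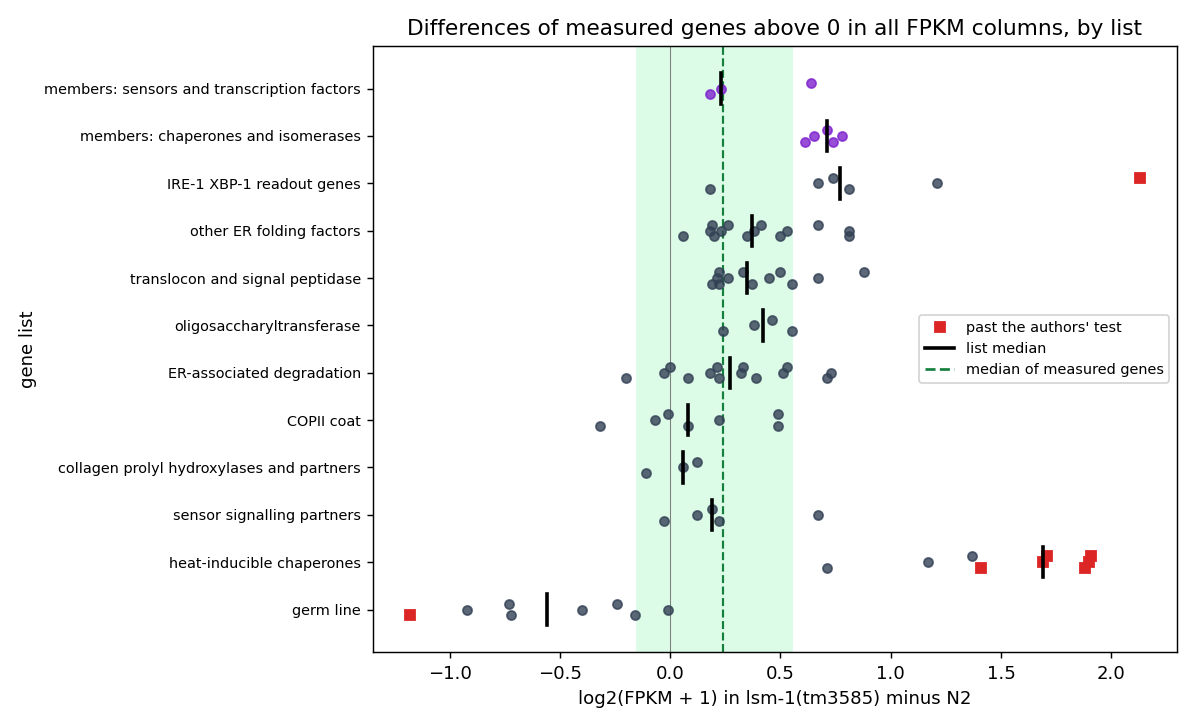
Difference in log2(FPKM + 1), lsm-1(tm3585) minus N2, for measured genes above 0 in all 4 columns, by list; each point is a gene, squares are genes past the authors' test, and thick bars are list medians. The dashed line is the median of measured genes and the shaded band their quartiles from -0.15 to 0.55. The chaperone and isomerase members (0.61 to 0.78) lie right of the band, with xbp-1 and atf-6 by the dashed line. Genes past the authors' test that have a value of 0 are not drawn: ire-1, called lower, and enpl-1, trap-1 and png-1, called higher.

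Marker levels of some tissues also differed between the libraries. All 8 germ line genes (glp-1, pgl-1, glh-1, glh-2, fbf-2, him-3, htp-3 and gld-1) were lower in the mutant library. Their summed level was 36.1 FPKM against 55.1 and their median difference -0.56, while 67.5% of measured genes above 0 in every column were higher. All 6 body wall muscle genes with values were higher, with a median of 0.58 and a sum of 785 FPKM against 574, with unc-15 and lev-11 listed at 0 in both libraries. The intestine markers summed to 350 FPKM against 272 (8 of 9 measured, ges-1 at 0). The epidermis markers summed to 365 FPKM against 297, with 9 of 10 measured. Of these, nhr-23 was at 0 in the mutant library. The epidermis gene bli-1, at 0.39 FPKM against 0.672, lay below the limit for measured genes. Among measured genes above 0 in every column the median was 0.32 for intestine, with 4 of 7 higher. For epidermis it was 0.51, with 7 of 8 higher. In the authors' deposited table elt-1 (8.05 FPKM against 1.73, q = 0.000526), elt-3 (16.6 against 6.06, q = 0.0124) and grd-10 (84 against 29, q = 0.0255) of the epidermis list passed as higher and nhr-23 as lower. In whole larvae, more cells of a tissue and more RNA per cell cannot be told apart, and the part of tissue make-up in the members' differences was not tested.

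The heat-inducible chaperones of the cytosol differed by more than the ER chaperones in these libraries. Their 9 genes had a median difference of 1.69, from 0.71 for hsp-70 to 1.91 for hsp-16.48. Of these, 6 passed as higher in the authors' deposited table, against 2.35% of all genes with a usable test. The 5 ER chaperone and isomerase genes with values had a median of 0.71 and a highest difference of 0.78. None passed, which is near that share. Near-identical hsp-16 copies can share reads, so their values are uncertain. The difference between the lists has no replicate check.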

How the data were processed

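Total RNA was depleted of ribosomal RNA and made into TruSeq libraries, per the labels' protocols. TopHat, Cufflinks and Cuffdiff are named without versions in the submitters' processing notes. Genome build, annotation and strand setting: not given in the sources used here; coordinates are left out. The authors deposited 1 table with 2 pairs of FPKM columns. The further pair was lower by a constant factor for most genes (1.142 in the mutant library, 1.139 in N2) and served as an alternative. From their comparison of the 2 libraries the authors deposited q-values, used here, and a log2 fold change, a test score and p-values, none of which is printed. That test compares libraries, not genotypes. It was usable for 17570 genes.

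No p-value was computed. Differences used a pseudocount of 1, which understates changes of low genes. Members, lists, tests and alternatives were chosen with earlier results of these data known; the comparison with genes of a like level and the scaling over protein-coding genes were added after seeing the data. Genes named from a list were its 2 highest and 2 lowest differences above 0 in every column, those past the authors' test and those at 0 in 1 library. The genes dnj-7, cnx-1, ero-1, pdi-3, rtcb-1, trap-2, sel-11 and sec-31, where outside that rule, were chosen after their values were seen. Of 137 list names, 107 matched a symbol in the table, 8 a sequence name and 16 a RefSeq locus tag; 6 had no match.

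For depth, 1 common step between the libraries was first estimated from 1309 low genes with 1 annotated transcript. For 55.9% of them the ratio between libraries, divided by this step, was a quotient of small whole numbers within 0.5%. The median over other steps was 6.57%. The depth of each library was then taken from the 250 of these genes whose ratio matched unequal small counts. Ribosomal RNA shares cover genes named rrn- or annotated as ribosomal RNA; 4 genes with the status HIDATA took scaled values of the further pair there. Fragment numbers use mean transcript lengths from Ensembl release 115 (WBcel235) and are approximate. Scripts were tested on simulated data. Tools were Python 3.11.15, pandas 2.3.3, numpy 2.4.6, scipy 1.17.1 and matplotlib 3.10.9.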

Additional observations from a re-analysis of the deposited data

Results flagged for a closer look

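The value of ire-1 in the mutant library of the further FPKM pair, 6.13, stands above the 4.54 of the wild type in the same pair. The pair beside the authors' test lists that library at 0, and the comparisons of the report do not use the further pair as their main values.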

How the results depend on the processing

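The call on ire-1, the 1 member past the size rule, changed direction: its difference of -2.63 turned to 0.36 with the further FPKM pair, and stood at -5.72 with a pseudocount of 0.1, -1.03 with 5, -2.86 after centring, -2.68 with both libraries scaled to the same FPKM sum and -2.75 with the same sum over protein-coding genes. After centring, xbp-1 moved from 0.23 to 0.00, hsp-3 from 0.65 to 0.41, crt-1 from 0.78 to 0.54, pdi-1 from 0.61 to 0.37 and pdi-6 from 0.71 to 0.48; atf-6 turned from 0.18 to -0.05 there and with the protein-coding sum. With the protein-coding sum these 5 were at -0.06, 0.35, 0.48, 0.32 and 0.42, and crt-1 at 0.65 with the sum over all genes. Centring lowered hsp-4 and pek-1 by the same amount, from 0.74 to 0.50 and from 0.64 to 0.40. With the protein-coding sum they were at 0.47 and 0.40. Both were counted as staying within their counting intervals, which are wider. The median of the 10 members went from 0.64 to 0.40 after centring and 0.35 with the protein-coding sum, and that of the 8 wider ER lists from 0.33 to 0.04 with the latter. The 1 member lower by the size rule became 0 with the further pair and among genes above 0 in every column, where the 7 wider ER genes called higher became 2. Over all measured genes the counts of 2011 higher and 1817 lower became 917 and 760 with a pseudocount of 5, 1297 and 901 with an FPKM of at least 5, and 775 and 456 among genes above 0 in every column. The cause was not tested; fewer genes enter the last 2 settings. Of 379 values recomputed, 338 stayed within the counting interval or, for counts, within 1.5 times. This tally is not a measure of robustness, because many of these values could not change. Settings that only alter which genes enter leave the difference of each single member as it was. The moved values not printed here belong to single lists. Among them the hydroxylase median of 0.06 went to -0.18 after centring and -0.23 with the protein-coding sum. No paired analysis was possible because each genotype has 1 library, which also leaves no replicate to leave out. Depth limits atf-6 most among the members.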

Other observations

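The Hsp70 and Hsp90 genes of other compartments give a scale for the ER chaperones. The cytosolic Hsp70 gene hsp-1 was at 73.0 FPKM in the mutant library against 30.7, a ratio of 2.38 with a counting interval of 2.14 to 2.66, and passed in the authors' deposited table (q = 0.0128). That interval lay above the 1.41 to 1.77 of hsp-3. The mitochondrial Hsp70 gene hsp-6 (44.1 against 28.9 FPKM) and the Hsp90 gene hsp-90 (149 against 99.8, listed as daf-21) had ratios of 1.52 and 1.49, near that of hsp-3 at 1.58. The nucleotide exchange factor gene hsp-110 was at 18.9 against 10.1 FPKM, a ratio of 1.87. The chaperonin gene hsp-60 was at 82.6 FPKM in the mutant library and listed at 0 in its other 3 values.

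The zero pattern of ire-1 has a mirror image. Listed at 0 only in the wild-type value of the pair beside the test were 72 genes, and only in the mutant value of that pair 57.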
